A study of Mus musculus with 9 samples.

Results

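The interferon regulatory factors (IRFs) and the signal transducers and activators of transcription (STATs) were followed through 9 of their members: Irf1, Irf2, Irf3, Irf5, Irf7, Irf8, Irf9, Stat2 and Stat3. All probes annotated to these symbols were taken, 18 probes for 9 genes of the 19057 genes with a single symbol on the array. RNA came from RAW264.7 cells, a mouse macrophage line, and was hybridised to 9 Illumina whole-genome bead arrays. In the knock-down group (3 arrays) the cells stably carried a short hairpin RNA against the transcript of NFAT5, a transcription factor known for the response to high salt. In the decoy group (3 arrays) the cells were stably transfected with oligonucleotides that hold the NFAT5 consensus sequence and compete for the protein. The control group (3 arrays) was the line labelled as not treated. The label field that holds the knock-down and decoy descriptions is headed il1b treatment, and whether any cells received that cytokine is not settled by the labels. None of the groups used here received an irrelevant hairpin or an irrelevant oligonucleotide, so transfection and selection cannot be told apart from the loss of NFAT5 activity. The labels do not tell if a stable line was 1 clone or a pool, nor if the replicates came from separate cultures. The p-values therefore cover the spread among 3 samples a group, which can be technical.

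IRFs and STATs carry signals of infection and of cytokines to the genome. Sensors of viral and bacterial molecules activate kinases that phosphorylate IRF3, IRF5 and IRF7, and these factors switch on interferon genes. Secreted interferon then acts through its receptors and Janus kinases on STAT proteins. STAT2 and IRF9 are parts of ISGF3, the complex that binds interferon-stimulated response elements, and Irf7 is itself a target of ISGF3. IRF1 activates and IRF2 mostly represses promoters with related elements. IRF8 works with PU.1 in the development and identity of macrophages, and STAT3 transmits the signals of the interleukin 6 and interleukin 10 families.

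The promoters of 4 members are shown because their transcripts are the ones the results turn on (Irf8, Irf7 and Irf9) or because the window holds all 3 motifs searched (Irf2). Each window runs from 250 bases before to 50 bases after a transcription start in RefSeq's annotation of GRCm38.p6, 5′ to 3′ on the strand of the gene, and capitals mark motif matches. All 9 members were matched to the table, with 12 windows in all. The Irf8 window lies at chr8:120736108-120736407 on the plus strand.
Irf8: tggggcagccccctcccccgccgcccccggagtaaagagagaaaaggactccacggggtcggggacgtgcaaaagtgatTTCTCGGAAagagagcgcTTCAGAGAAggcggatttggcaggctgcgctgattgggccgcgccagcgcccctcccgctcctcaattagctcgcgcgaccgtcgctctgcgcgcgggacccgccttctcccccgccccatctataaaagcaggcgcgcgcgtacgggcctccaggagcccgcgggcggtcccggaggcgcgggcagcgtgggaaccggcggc
The Irf7 window lies at chr7:141266375-141266674 on the minus strand.
Irf7: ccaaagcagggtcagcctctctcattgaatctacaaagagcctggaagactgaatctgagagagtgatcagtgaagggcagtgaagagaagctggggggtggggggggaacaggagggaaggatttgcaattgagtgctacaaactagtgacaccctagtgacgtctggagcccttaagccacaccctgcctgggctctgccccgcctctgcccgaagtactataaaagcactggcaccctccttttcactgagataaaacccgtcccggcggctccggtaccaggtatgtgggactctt
The Irf9 window lies at chr14:55603735-55604034 on the plus strand.
Irf9: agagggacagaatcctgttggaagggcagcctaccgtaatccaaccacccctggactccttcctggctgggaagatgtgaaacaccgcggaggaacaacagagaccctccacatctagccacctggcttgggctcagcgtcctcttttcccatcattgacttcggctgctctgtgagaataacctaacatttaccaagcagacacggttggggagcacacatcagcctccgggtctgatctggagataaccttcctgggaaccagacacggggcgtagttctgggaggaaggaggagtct
The Irf2 window lies at chr8:46739495-46739794 on the plus strand.
Irf2: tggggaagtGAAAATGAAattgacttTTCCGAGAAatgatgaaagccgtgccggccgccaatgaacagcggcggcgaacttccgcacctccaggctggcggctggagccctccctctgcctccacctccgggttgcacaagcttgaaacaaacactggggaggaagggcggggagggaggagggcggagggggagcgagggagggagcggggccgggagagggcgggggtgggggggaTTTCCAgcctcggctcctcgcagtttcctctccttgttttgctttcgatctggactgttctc
The motifs were GAAANNGAA for the interferon-stimulated response element, TTCNNNGAA for the STAT site and TGGAAA for the core of the NFAT5 site, each searched on both strands. The STAT site was found in 3 of the 12 windows, those of Irf1, Irf2 and Irf8, and in 8.30% of 32851 promoter windows in the table. The Irf8 window held 2 matches, TTCTCGGAA and TTCAGAGAA, at positions -171 and -153 relative to the start. The interferon-stimulated response element was found in 2 of the 12 windows, those of Irf2 and Stat2, and in 8.56% of all windows. The NFAT5 core was found in 2 of the 12 windows, those of Irf1 and Irf2, and in 21.4% of all windows. The printed Irf7 and Irf9 windows held no match, which says only that these letters are not in those 300 bases. No motif in any of the 12 windows overlapped another motif.

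The arrays of the groups differed in brightness, which touches every comparison with control. The upper quartile of the raw signal was 209 to 257 units for knock-down, 214 to 237 units for decoy and 319 to 336 units for control. The share of probes above background was 21.5% to 27.1% for knock-down, 24.6% to 26.9% for decoy and 34.1% to 34.9% for control. A probe counted as above background when its log2 signal exceeded the most frequent signal of its array by more than 3 SD, with the SD taken from the signals below that mode. The low end of the signal did not follow the upper quartile. That background limit was 230.1 to 254.2 units for knock-down, 214.5 to 229.3 units for decoy and 192.7 to 200.3 units for control. The raw median was 172 to 187 units for knock-down, 156 to 167 units for decoy and 150 to 158 units for control. Quantile normalization, the main setting, gives all arrays the same distribution. Scaling the arrays to a common median instead moved the median difference of all tested probes to -0.41 in knock-down and -0.35 in decoy, on the log2 scale against control. It also changed the split of calls over all probes. With quantile normalization 6117 probes were called higher and 6465 lower in knock-down, and with median scaling 2251 higher and 12907 lower. For decoy the counts were 4344 higher and 4926 lower with quantile normalization, and 1920 higher and 11467 lower with median scaling. Median scaling called 8.32% of all tested probes higher and 47.7% lower in knock-down, and 7.09% higher and 42.4% lower in decoy. Values of both scalings are given below for the calls the results turn on.

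The targeted transcript was checked with 2 probes of Nfat5 that exceeded background on all 9 arrays. The brighter one averaged 10.44 ± 0.061 in knock-down and 10.98 ± 0.088 in decoy, against 11.46 ± 0.11 in control (log2 level, SD, n = 3 each). Its level was 2.04-fold lower in knock-down (adjusted p = 2.5e-05 from limma). In decoy it was 1.40-fold lower (adjusted p = 0.0112). Between the treatments it was 1.46-fold lower in knock-down than in decoy (limma adjusted p = 0.0418), a difference that median scaling did not call (-0.82). Against control the other probe moved the opposite way, by 0.65 (adjusted p = 0.00153) and 0.72 (adjusted p = 0.00107) on the log2 scale. With median scaling the brighter probe was called lower in both groups (-2.17 and -1.35), and the other was at -0.52, called lower, in knock-down and at -0.19 without a call in decoy. The decoy is a competitor for the protein, and the labels name no change of the transcript for it. Of 9 measured macrophage markers, Csf1r, Lyz2, Cd14, Spi1 and Cd74 exceeded background on every array, while Itgam and Mertk did so on none. Of the markers of fibroblasts, T and NK cells and neutrophils, Acta2, Cd8b1 and S100a8 exceeded background on all 9 arrays, and no measured B cell or epithelial marker did.

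Of the 18 probes, 17 exceeded the median probe on at least 3 arrays and were tested. The remaining one, the dimmest of 5 Irf1 probes, was above background on no array. In knock-down 9 of the 17 probes were called higher and 1 lower at a Benjamini-Hochberg adjusted p below 0.05 over all 27062 tested probes. Over all tested probes 22.6% were called higher and 23.9% lower. In decoy 4 of the 17 were called higher and 1 lower, where 16.1% of all tested probes were called higher and 18.2% lower. The 4 became 7 without knock-down replicate 2, 9 with array weights and 8 in a fit of only the 2 groups. The median difference of the 17 probes was 0.55 in knock-down and 0.36 in decoy, against 0.01 and 0.01 over all tested probes (log2 scale). With arrays scaled to a common median, 2 of the 17 were called higher and 9 lower in knock-down, and 2 higher and 8 lower in decoy, near the shares of all tested probes under that scaling. The median of the 17 was then -0.50 in knock-down and -0.54 in decoy, which is -0.09 and -0.19 relative to the median of all tested probes. The members that kept their direction and their call under both scalings, in both comparisons and on the same probe, were Irf8 (lower), Irf7 (higher) and the second probe of Irf9 (higher). Both comparisons share the 3 control arrays, so their likeness is no independent support.

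**Figure D1:**
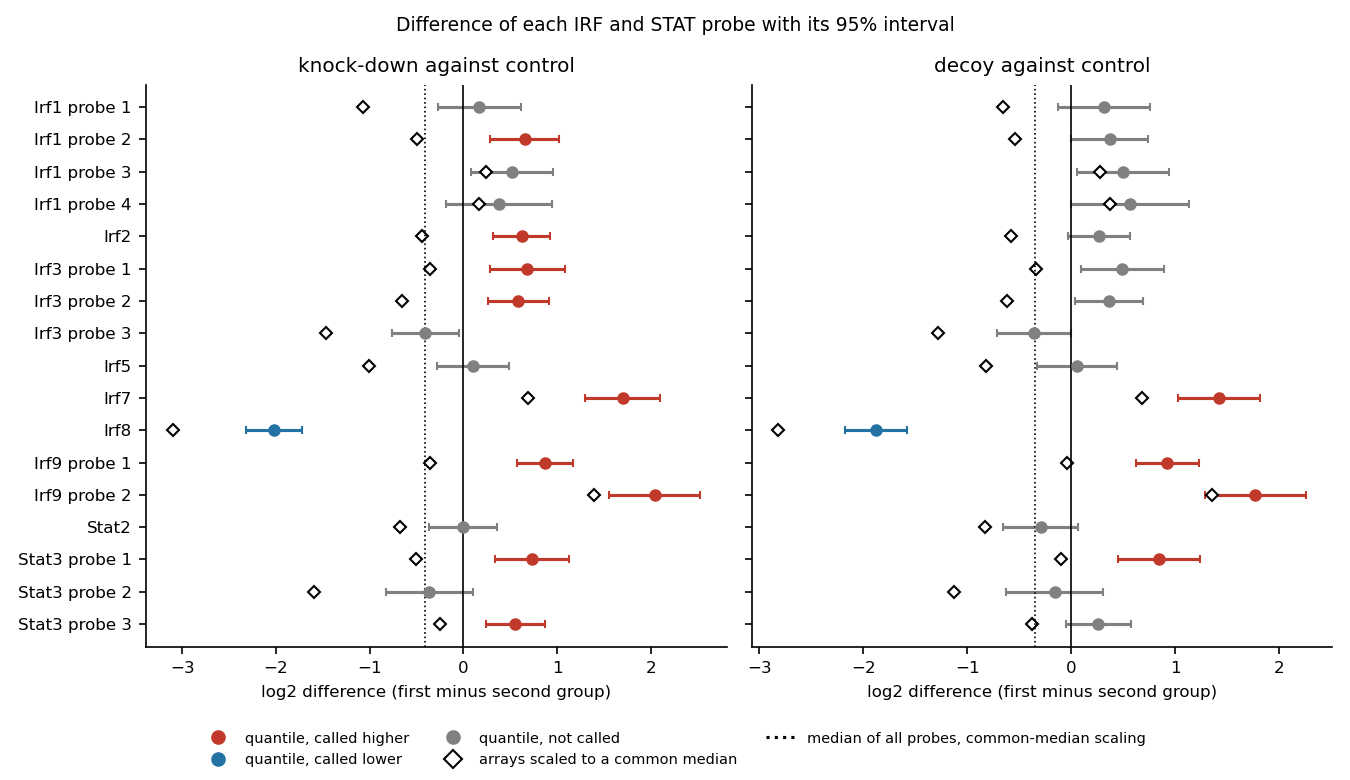
Log2 difference of each tested IRF and STAT probe (rows) in knock-down against control (left) and decoy against control (right), with its 95% interval from limma; filled points are quantile-normalized values and open diamonds the same difference with arrays scaled to a common median. Irf8 lies far to the left under both scalings, at -2.02 and -1.87 for the quantile-normalized values, Irf7 and the second Irf9 probe lie to the right under both, and most other points cross zero between the scalings.

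Irf8, the macrophage and dendritic cell factor, had the lowest difference of the 17 probes in both comparisons. Its probe read 331, 284 and 225 units on the knock-down arrays and 358, 298 and 258 units on the decoy arrays, against 1753, 2179 and 1989 units on the control arrays. Every treated array lay far below every control array, and the treated signals were close to background, which they exceeded on 2 of 3 knock-down and 3 of 3 decoy arrays. After normalization the log2 level averaged 8.06 ± 0.092 in knock-down, 8.21 ± 0.16 in decoy and 10.08 ± 0.13 in control (SD, n = 3 each). This is a 4.07-fold lower level in knock-down (95% interval 3.30 to 5.01, limma adjusted p = 7.86e-08). In decoy the level was 3.67-fold lower (95% interval 2.98 to 4.51, adjusted p = 4.79e-07). The call held in all 19 alternatives, from -3.10 to -1.73 in knock-down and from -2.82 to -1.62 in decoy (log2 difference), the lowest values with median scaling. In RNA from whole cultures, fewer cells with a transcript and less of it per cell cannot be told apart.

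**Figure D2:**
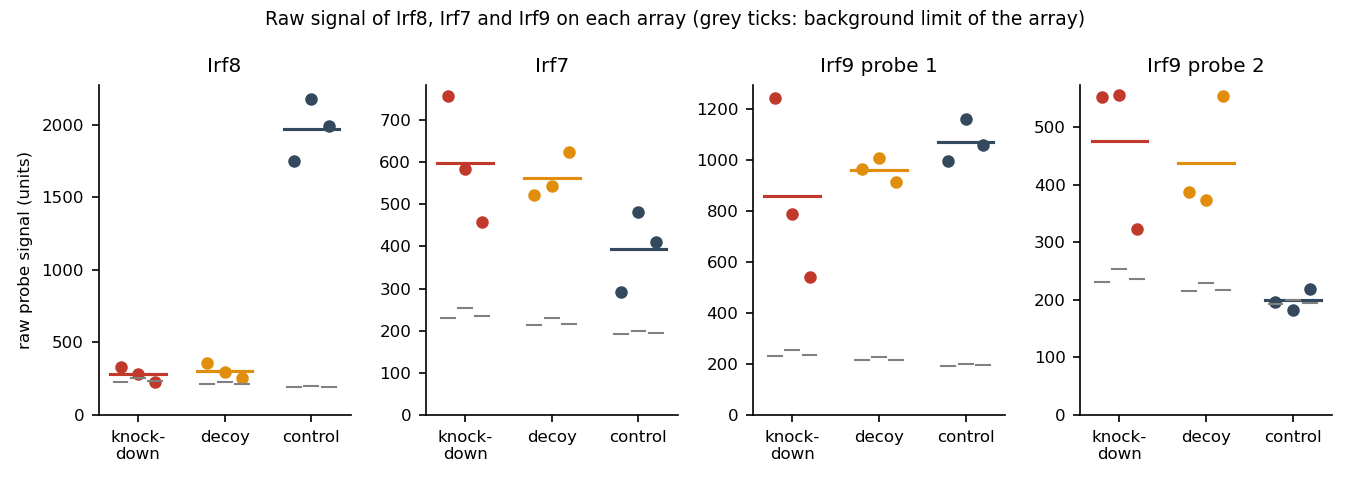
Raw probe signal in units (vertical axes, linear and starting at 0) of Irf8, Irf7 and both Irf9 probes on each array of the knock-down, decoy and control groups; points are arrays, coloured lines group means and grey ticks the background limit of each array. Irf8 is at 225 to 358 units on the 6 treated arrays and at 1753 to 2179 units on the control arrays, while the second Irf9 probe is at 183 to 219 units on control, near the limit, and at 322 to 555 units on treated arrays.

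Irf7, the inducible driver of type I interferon genes, was higher in both treated groups. The signal was 756, 584 and 457 units on the knock-down arrays and 522, 543 and 625 units on the decoy arrays, against 291, 481 and 410 units on the control arrays. The decoy arrays all read above the control arrays, while the dimmest knock-down array read below the brightest control array before normalization. After normalization the groups did not overlap, at 9.56 ± 0.11 in knock-down, 9.28 ± 0.36 in decoy and 7.86 ± 0.28 in control (log2 level, SD, n = 3 each). The level was 3.24-fold higher in knock-down (95% interval 2.46 to 4.27, limma adjusted p = 5.49e-06). In decoy it was 2.68-fold higher (95% interval 2.03 to 3.52, adjusted p = 5.57e-05). Irf7 was called higher in all 19 alternatives. With median scaling its log2 difference was 0.69 in knock-down and 0.68 in decoy, the lowest of the alternatives, with adjusted p = 0.0222 and 0.0268.

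Irf9, the DNA-binding part of ISGF3, was measured by 2 probes that differed in size and, under median scaling, in sign. The brighter probe read 1243, 788 and 542 units on the knock-down arrays and 965, 1006 and 914 units on the decoy arrays, against 996, 1160 and 1059 units on the control arrays. These raw values overlap between each treated group and control. After quantile normalization the probe was 1.82-fold higher in knock-down (adjusted p = 1.76e-04) and 1.90-fold higher in decoy (adjusted p = 1.96e-04), but with median scaling its log2 difference was -0.36 and -0.04 and was not called.

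The second Irf9 probe read 552, 555 and 322 units on the knock-down arrays and 387, 374 and 553 units on the decoy arrays, against 197, 183 and 219 units on the control arrays. All 6 treated arrays lay above all 3 control arrays in raw signal, and 2 of the 3 control arrays exceeded background. The probe was 4.12-fold higher in knock-down (95% interval 2.94 to 5.75, limma adjusted p = 6.26e-06) and 3.41-fold higher in decoy (95% interval 2.44 to 4.76, adjusted p = 4.71e-05). It was called higher in all 18 alternatives that tested it, with log2 differences of 1.39 to 2.36 in knock-down and 1.32 to 2.06 in decoy. Which stretch of the transcript each probe covers was not analysed here.

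Stat2, the STAT that pairs with IRF9 in ISGF3, was dim. Its probe read 228, 248 and 207 units in knock-down and 183, 185 and 216 units in decoy, against 326, 310 and 293 units in control. It exceeded background on all 3 control arrays and on none of the 6 treated arrays, so no fold is given. The background limit was itself higher on the treated arrays (214.5 to 254.2 units) than on the control arrays (192.7 to 200.3 units). Knock-down replicate 2 read 248 units against a limit of 254.2 units. The normalized log2 level was 7.59 ± 0.16 in knock-down, 7.30 ± 0.34 in decoy and 7.60 ± 0.082 in control (SD, n = 3 each), and neither difference was called (adjusted p = 0.98 and 0.189). With median scaling Stat2 was called lower, at -0.68 in knock-down and -0.83 in decoy.

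**Figure D3:**
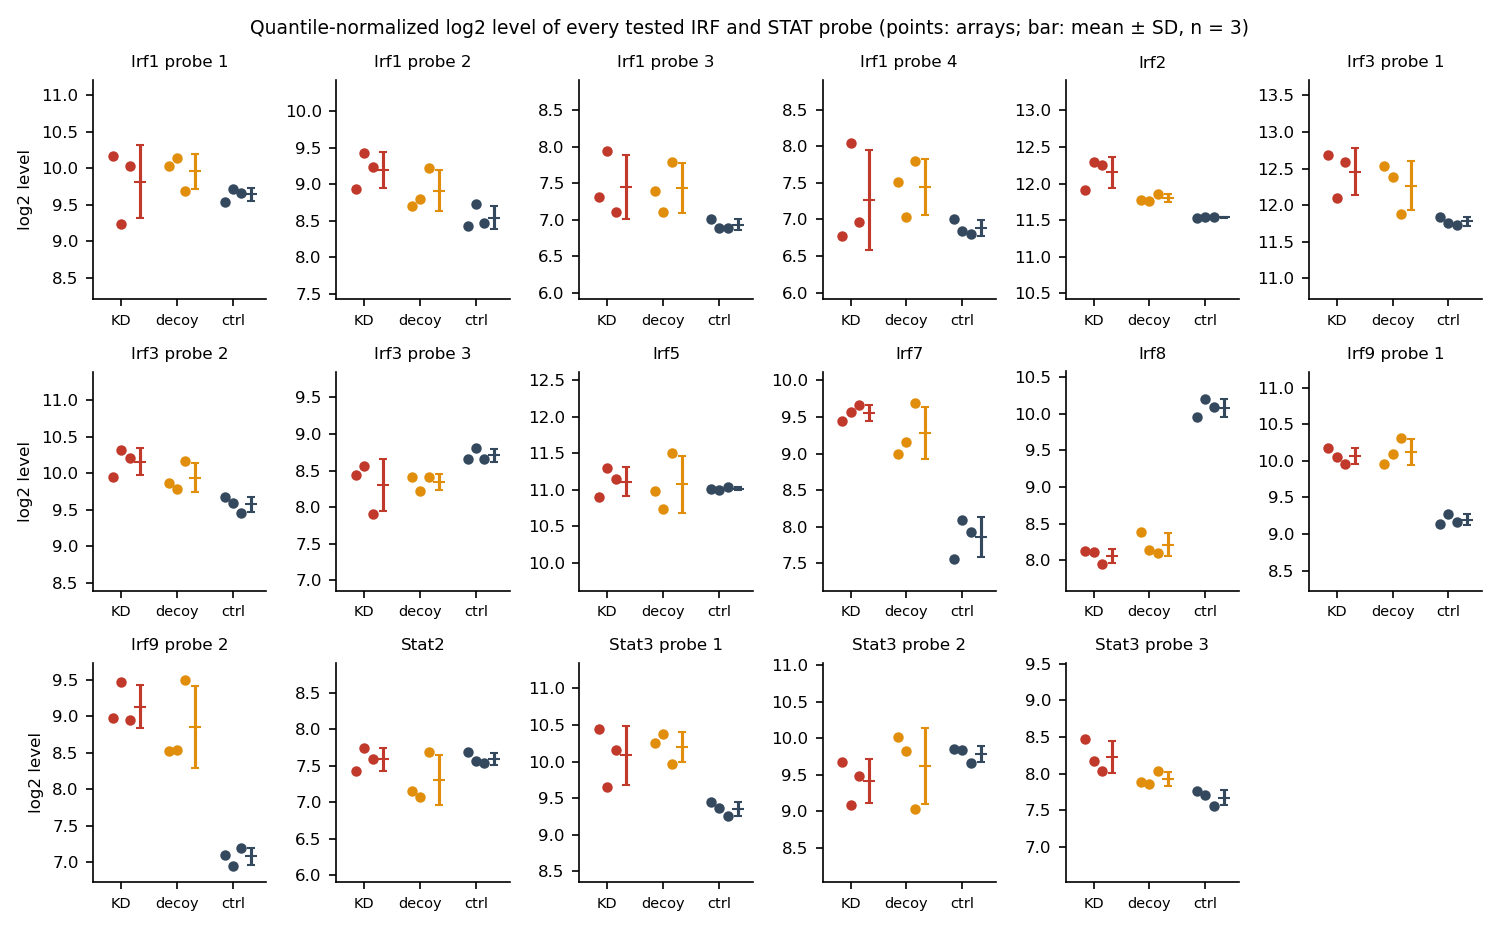
Quantile-normalized log2 level (vertical axes, each spanning the same width) of the 17 tested probes on every array of the knock-down (KD), decoy and control (ctrl) groups; points are arrays and bars the mean ± SD of 3. Control arrays cluster tightly for most probes, Irf8 is the one probe with treated arrays far below control, and the 3 probes of Stat3 and of Irf3 do not all move the same way.

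Irf3, the constitutive factor that starts the interferon response, was read by 3 probes that did not move together. The brightest read 7174, 3082 and 3274 units in knock-down and 5683, 4839 and 2632 units in decoy, against 5916, 6023 and 5853 units in control. One knock-down array lay above all control arrays and the other two far below them. Normalized, it was 1.60-fold higher in knock-down (adjusted p = 0.0078) and 1.41-fold in decoy without passing the test (adjusted p = 0.0534), and with median scaling its difference was -0.36 and -0.34 with no call. The next probe was higher in knock-down by 0.58 on the log2 scale (adjusted p = 0.00574), with a called difference of -0.65 under median scaling. In decoy its difference was 0.36 (adjusted p = 0.0771), and -0.62 under median scaling. The third probe read 398, 345 and 222 units in knock-down and 363, 312 and 303 units in decoy, against 712, 835 and 734 units in control. Its normalized difference was -0.41 and -0.36 (adjusted p = 0.0587 and 0.11), and median scaling made both called decreases, -1.47 and -1.28.

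Irf5, which drives inflammatory cytokines downstream of Toll-like receptors, was not called in either comparison after quantile normalization. Its signal was 2069, 1781 and 1203 units in knock-down and 1967, 1561 and 2023 units in decoy, against 3407, 3638 and 3633 units in control. All treated arrays were lower than all control arrays before normalization. The normalized log2 difference was 0.10 (95% interval -0.29 to 0.48, adjusted p = 0.679) in knock-down and 0.06 (95% interval -0.32 to 0.44, adjusted p = 0.823) in decoy. With median scaling Irf5 was called lower, at -1.01 in knock-down and -0.82 in decoy. The scalings thus differ on whether Irf5 was lower.

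Irf2 showed the same dependence. The signal was 4201, 3523 and 2590 units in knock-down and 3392, 3193 and 2594 units in decoy, against 4870, 5227 and 5120 units in control. Quantile normalization gave a 1.54-fold higher level in knock-down (adjusted p = 0.00233) and a log2 difference of 0.26 in decoy that did not pass (adjusted p = 0.158), while median scaling gave called decreases of -0.45 and -0.58.

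Irf1, an activator induced by interferon gamma, had 2 probes above background on all 9 arrays. The brighter read 1236, 489 and 564 units in knock-down and 1024, 1042 and 625 units in decoy, against 1326, 1588 and 1507 units in control. It was not called after quantile normalization, with log2 differences of 0.17 in knock-down (adjusted p = 0.519) and 0.31 in decoy (adjusted p = 0.258). Median scaling gave -1.07, a call, and -0.66 without one. The next probe read 540, 542 and 372 units in knock-down and 431, 437 and 474 units in decoy, against 591, 781 and 637 units in control. It was called higher in knock-down with quantile normalization (log2 difference 0.65, adjusted p = 0.00634) and called lower with median scaling (-0.50). Both remaining tested Irf1 probes were above background on no control array and on 1 or 2 arrays of a treated group. Their log2 differences of 0.38 to 0.56 did not pass the test in either comparison, nor did their 0.16 to 0.37 with median scaling.

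Stat3, the mediator of interleukin 6 and interleukin 10 signals, was read by 3 probes. The first read 1480, 612 and 613 units in knock-down and 1207, 1225 and 737 units in decoy, against 1239, 1227 and 1126 units in control. It was called 1.66-fold higher in knock-down (adjusted p = 0.00492) and 1.79-fold higher in decoy (adjusted p = 0.00293), but median scaling gave -0.50 and -0.10 without a call. The second read 878, 450 and 420 units in knock-down and 1013, 833 and 424 units in decoy, against 1626, 1724 and 1495 units in control. All its treated arrays lay below its control arrays before normalization, and its normalized differences were -0.37 (adjusted p = 0.18) and -0.16 (adjusted p = 0.603). Median scaling made these called decreases of -1.60 and -1.12. The third was called higher in knock-down only by quantile normalization (log2 difference 0.55, adjusted p = 0.00669) and was at -0.25 with median scaling. No direction is stated for Stat3 as a gene, since its probes disagree. Of the other IRF and STAT genes with a tested probe, 1 of 3 was called higher in knock-down and 0 in decoy, namely Stat5a, whose brightest probe was 1.38-fold higher in knock-down (adjusted p = 0.0435), with -0.74 and a call under median scaling, and whose other probe was called lower (-0.56). With median scaling 0 of these 3 genes were called higher and 2 lower in each comparison. The 2 were Stat5a and Stat6, the latter at -1.41 in knock-down and -1.07 in decoy.

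No member probe was called between knock-down and decoy, where 1.06% of all tested probes were called higher and 1.62% lower. Without adjustment 1 of the 17 probes had a p below 0.05, that of Irf2, which was 1.28-fold higher in knock-down than in decoy (adjusted p = 0.19). The 17 log2 differences ran from -0.21 to 0.35, and their 95% intervals lay within -0.75 and 0.76. A difference of up to 1.69-fold between both treatments is therefore within the intervals of some probes. For Irf8 the interval of the log2 difference was -0.45 to 0.15, and for Irf7 it was -0.12 to 0.67.

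Genes around the factors were read through the brightest tested probe of each gene. Over the 13716 genes with a tested probe, 26.5% were called higher and 21.4% lower in knock-down, and 18.1% higher and 16.7% lower in decoy. The median log2 difference over these genes was 0.08 in knock-down and 0.04 in decoy. With median scaling 8.04% were called higher and 48.9% lower in knock-down, and 6.69% higher and 43.9% lower in decoy, with medians of -0.45 and -0.40. The counts and medians of each list under median scaling are to be read against these. The lists were drawn up with earlier results of these data known, so their counts are descriptions.

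Interferon genes, with the gene of interferon gamma (Ifng) among them, were near the limit of detection. Of 10 tested interferon genes none exceeded background on all 9 arrays and 6 exceeded it on none. In knock-down 3 were called higher and 1 lower, and in decoy 2 higher and 0 lower, with medians of 0.05 and 0.20 on the log2 scale. With median scaling 2 were called higher and 1 lower in knock-down, and 1 each way in decoy, with medians of 0.05 and 0.02. The one called lower was Ifnab, at 8.16 ± 0.068 in knock-down against 8.58 ± 0.089 in control (log2 level, SD, n = 3 each, adjusted p = 0.0239), and it was called lower with median scaling too (-1.46). Ifng exceeded background on no array, and its brightest probe was called higher with median scaling in knock-down (0.73) and decoy (0.86).

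Among 17 tested receptors and Janus kinases, 4 were called higher and 6 lower in knock-down, and 1 higher and 5 lower in decoy, with median log2 differences of -0.32 and -0.20. With median scaling 0 were called higher and 14 lower in each comparison, with medians of -0.87 and -0.91. Il6ra, the interleukin 6 receptor, was called higher on all 3 of its probes, 2.47-fold in knock-down (adjusted p = 2.26e-05) and 1.54-fold in decoy (adjusted p = 0.0102) on the brightest, a rise that median scaling did not call (0.11 and -0.33). Tyk2, a kinase of the interferon receptor, was 1.94-fold lower in knock-down (adjusted p = 1.75e-04) and 1.99-fold lower in decoy (adjusted p = 2.26e-04) on its brightest probe, while its other 2 probes were not called. With median scaling the brightest was at -2.14 and -1.93 and all 3 were called lower. Ifnar2, a chain of the type I interferon receptor, was called lower on 2 probes in both comparisons, and its brightest probe was 1.76-fold lower in decoy (adjusted p = 6.27e-04) and above background on no knock-down array, and with median scaling it was called lower at -2.13 and -1.70.

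Activators upstream of IRF3, IRF5 and IRF7 were tested for 24 genes. In knock-down 11 were called higher and 2 lower, and in decoy 9 higher and 2 lower, with median log2 differences of 0.30 and 0.28. With median scaling the counts were 3 higher and 16 lower in knock-down, and 2 higher and 11 lower in decoy, and the medians turned to -0.65 and -0.49. Dhx58, a member of the RIG-I-like receptor family, was 3.68-fold higher in knock-down (adjusted p = 6.13e-07) and 2.47-fold higher in decoy (adjusted p = 3.7e-05), and it stayed called with median scaling (0.94 and 0.63). Ddx58, which encodes the RNA sensor RIG-I, was 2.26-fold higher in knock-down (adjusted p = 4.8e-05) and 1.64-fold higher in decoy (adjusted p = 0.00391), with 0.50, a call, and 0.26 without one under median scaling. Cgas, the sensor of cytosolic DNA, was 2.02-fold higher in knock-down and 1.66-fold higher in decoy (adjusted p = 3.87e-05 and 9.6e-04), a rise that median scaling did not call (-0.01 and -0.08). Among the genes that median scaling called lower in both comparisons were Irak1 and Mavs. Irak1 was called lower on all 3 of its tested probes, at -1.68 in knock-down and -1.46 in decoy on the brightest. Mavs was at -1.33 and -0.89.

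Negative regulators of STAT and IRF signalling gave 7 genes called higher and 3 lower of 19 in knock-down, and 5 higher and 3 lower in decoy, with median log2 differences of 0.14 and -0.03. With median scaling 1 was called higher in each comparison, against 10 lower in knock-down and 12 in decoy, with medians of -0.86 and -0.76. Usp18, which removes ISG15 and dampens the interferon receptor, averaged 12.01 ± 0.23 in knock-down and 12.15 ± 0.11 in decoy, against 9.79 ± 0.15 in control (log2 level, SD, n = 3 each). It was 4.67-fold higher in knock-down (adjusted p = 7.15e-08) and 5.13-fold higher in decoy (adjusted p = 1.13e-07). Its other probe was called too, and median scaling left it called higher at 1.07 and 1.42. Irf2bp2, a partner of IRF2 in repression, had a log2 difference of -1.85 in knock-down (adjusted p = 5.74e-06) and -1.61 in decoy (adjusted p = 4.21e-05) on its brightest probe, with -2.95 and -2.53 under median scaling. A second Irf2bp2 probe was called lower in knock-down (adjusted p = 0.00482) and not in decoy (adjusted p = 0.192), and in both with median scaling. A further Irf2bp2 probe was not called with median scaling, at -0.04 in knock-down and 0.05 in decoy.

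Interferon-stimulated targets of ISGF3 and IRFs were tested for 33 genes, of which 19 were called higher and 2 lower in knock-down, and likewise 19 higher and 2 lower in decoy. Their median log2 difference was 0.56 in knock-down and 0.57 in decoy. With median scaling 11 were called higher and 8 lower in knock-down, and 10 higher and 6 lower in decoy, with medians of 0.007 and 0.14, or 0.42 and 0.48 relative to the median of all tested probes. Parp14, an ADP-ribosyltransferase, was 3.99-fold higher in knock-down (adjusted p = 6.84e-08) and 3.43-fold in decoy (adjusted p = 5.25e-07). Rsad2, the antiviral protein viperin, was 3.75-fold higher in knock-down (adjusted p = 2.73e-07) and 4.36-fold in decoy (adjusted p = 2.84e-07). Eif2ak2, the RNA-dependent kinase PKR, was 4.00-fold higher in knock-down (adjusted p = 4.08e-07) and 2.98-fold in decoy (adjusted p = 8.02e-06). Igtp, an interferon-inducible GTPase, was 3.35-fold higher in knock-down (adjusted p = 5.78e-07) and 3.75-fold in decoy (adjusted p = 6.53e-07). All 4 stayed called higher with median scaling, at 0.64 to 1.73 on the log2 scale. Other interferon-stimulated genes were called lower with that scaling in both comparisons. Among them were Bst2 (-1.67 in knock-down and -1.02 in decoy) and Ifit2 (-1.07 and -0.94). Irgm1 was called lower on its brightest probe (-2.38 and -1.99), while its other probes were not called.

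**Figure D4:**
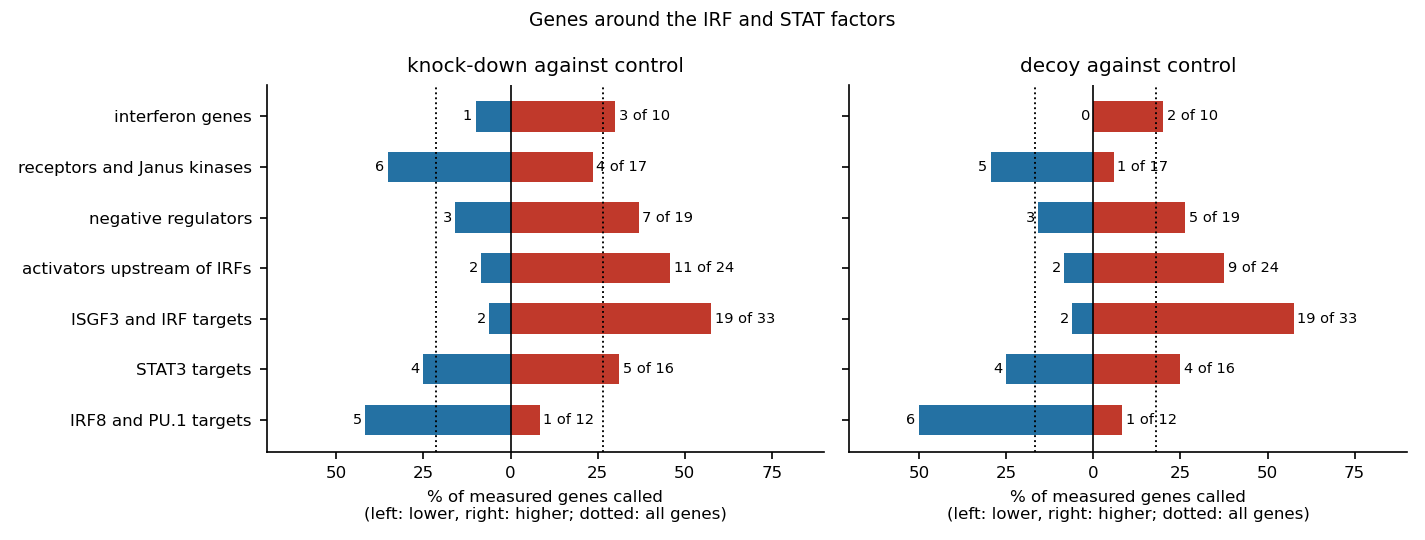
Share of the tested genes of each list called higher (right, red) or lower (left, blue) in knock-down against control and decoy against control, with counts at the bars; dotted lines mark the same shares over all 13716 genes, from quantile-normalized values. The ISGF3 and IRF targets extend furthest to the right, 19 of 33 in both comparisons, and the IRF8 and PU.1 list furthest to the left.

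Genes known as partners or targets of IRF8 and PU.1 gave 1 gene called higher and 5 lower of 12 in knock-down, and 1 higher and 6 lower in decoy, with median log2 differences of -0.36 and -0.27. With median scaling the counts were 0 higher and 9 lower in knock-down, and 1 higher and 7 lower in decoy, with medians of -0.91 and -0.70. Ncf1, a subunit of the phagocyte oxidase, was 2.47-fold lower in knock-down (adjusted p = 2.45e-05) and 1.73-fold lower in decoy (adjusted p = 0.0025). Spi1, which encodes PU.1, was 1.90-fold lower in knock-down (adjusted p = 0.003) and 1.66-fold lower in decoy (adjusted p = 0.0175). Csf1r, the receptor for macrophage colony-stimulating factor, was 2.61-fold lower in knock-down (adjusted p = 0.0011) and 1.95-fold lower in decoy (adjusted p = 0.0167) on its brightest probe, while its other probe was called only with median scaling. With that scaling the probes given for Ncf1, Spi1 and Csf1r were called lower too, at -2.50 to -1.65. The other Ncf1 probe was not called with that scaling, at 0.08 in knock-down and -0.08 in decoy. Fcgr1, the high-affinity receptor for immunoglobulin G, was 1.66-fold higher in decoy (adjusted p = 0.00397), at 0.03 with median scaling, and above background on no knock-down array. With median scaling it was called lower in knock-down, at -1.03 against control and -1.06 against decoy. The summed raw signal of the 9 macrophage markers was 56388 to 99998 units in knock-down and 79039 to 88070 units in decoy, against 96308 to 100648 units in control, and its part in the fall of Irf8 was not tested. After quantile normalization 1 of 8 tested macrophage markers was called higher and 4 lower in knock-down, and 2 higher and 3 lower in decoy. With median scaling 1 was called higher and 5 lower in knock-down, and 1 higher and 4 lower in decoy, with medians of -1.26 and -0.86. Adgre1 was among those called lower (-1.49 and -1.52). The one called higher was Lyz2, on its brightest probe (0.46 and 0.53). Its other probes were called lower in knock-down (-0.53 and -1.43), and in decoy only the dimmer change of -0.38 was not called, against -0.90. The 9 markers of T and NK cells summed to 4589 to 7817 units in knock-down and 4860 to 5416 units in decoy, against 9837 to 11039 units in control. Of these, 7 exceeded background on no array, and Cd8b1 was not called after quantile normalization (0.13 and -0.25) but called lower with median scaling (-0.87 and -1.04). The 7 neutrophil markers summed to 1393 to 1602 units in knock-down and 1345 to 1412 units in decoy, against 1044 to 1123 units in control. S100a8, with the other 6 above background on no array, was called higher by 1.66 and 1.52 in log2, and by 0.78 and 0.90 with median scaling. The 9 fibroblast markers summed to 1943 to 2261 units in knock-down and 1617 to 1916 units in decoy, against 1512 to 1624 units in control. Acta2 was called higher (1.64 and 0.88) but not with median scaling (0.58 and 0.11), and 7 of the 9, Col1a1 among them, exceeded background on no array. Sums over probes below background also hold the background signal of the array. The background limit was higher on treated than on control arrays, and its part in these sums was not tested. The part of these markers in the results was not tested.

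Of 16 tested STAT3 targets, 5 were called higher and 4 lower in knock-down, not far from the shares over all genes, and 4 higher and 4 lower in decoy, with median log2 differences of 0.26 and 0.02. With median scaling 0 were called higher and 8 lower in knock-down, and 2 higher and 8 lower in decoy, with medians of -0.64 and -0.43. Mcl1, a survival factor, was 2.76-fold lower in knock-down (adjusted p = 1.07e-04) and 1.98-fold lower in decoy (adjusted p = 0.00378), and it was called lower with median scaling (-2.50 and -1.76). Il1rn, the antagonist of the interleukin 1 receptor, was 1.85-fold higher in knock-down (adjusted p = 2.32e-04) and 3.94-fold higher in decoy (adjusted p = 4.79e-07), and the knock-down level was 2.13-fold below the decoy level (adjusted p = 0.00102), a difference that median scaling called too (-1.24). With median scaling the rise of Il1rn was called in decoy (1.43) and not in knock-down (0.19). These values are of the brightest Il1rn probe. With median scaling the other Il1rn probe was called lower in knock-down (-0.55). It was not called in decoy (0.27) or between knock-down and decoy (-0.81).

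The genes whose profiles over the 9 arrays lay closest to a member were found among 6009 genes above background on all arrays, by the root mean square difference of centred log2 profiles. For Irf8 these were Txn1 (0.12), Exosc6 (0.14) and Lman1 (0.15). For Irf7 they were Acad8 (0.16), Dhx58 (0.17) and Fcna (0.17), and for the brighter Irf9 probe Hacd1 (0.053), Apip (0.089) and Ndufaf7 (0.093). For comparison, the profile of Irf8 departed from its own mean by 0.93, that of Irf7 by 0.78 and that of Irf9 by 0.44 on the same measure. Txn1, Exosc6 and Lman1 had log2 differences of -2.22, -2.11 and -2.04 in knock-down and -1.90, -2.06 and -1.72 in decoy. Acad8, Dhx58 and Fcna had 1.69, 1.88 and 1.77 in knock-down and 1.29, 1.30 and 1.35 in decoy. The 9 arrays are 3 groups, so a shared group difference alone makes profiles alike.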

How the data were processed

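RNA of RAW264.7 cells was hybridised to 9 Illumina bead arrays. Samples were grouped by their titles. The characteristics tag headed il1b treatment holds the knock-down and decoy text and was not used. The authors deposited raw probe intensity values, whole numbers without background subtraction as the values show, and a second table of log2 values they had processed, with a normalization not given in the sources used here. R 2.9.1 appears in the submitters' processing notes. The raw table has no detection p-values, so the design's fallback was used. After 2042 blank rows were dropped, intensities were background-corrected (normexp, offset 50), put on the log2 scale and quantile-normalized with limma 3.58.1 in R 4.3.3. Probes above the array median on at least 3 arrays were kept (27062 of 45281). A linear model with 3 group means over all 9 arrays was fitted with lmFit and eBayes, two-sided, with Benjamini-Hochberg adjustment over all kept probes and calls at adjusted p below 0.05. Symbols came from the platform annotation (34885 probes with 1 symbol, 18 with several, 10378 with none). The number of arrays limits the precision.

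Named were all members, Nfat5, up to 4 genes of smallest p per list and comparison, and the 3 genes most like each member. Of these, and of the other genes in the lists, some are printed, picked after their values were seen. The members and lists were chosen with earlier results of these data known. The alternatives were another scaling, the authors' values, no background correction, offset 16, other probe filters, the brightest probe per gene, array weights, a replicate block, 2-group fits and each array left out. The fit was tested on simulated data with known changes. These data held no difference in brightness between groups and were not normalized again, so the choice of scaling was not tested by them.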

Additional observations from a re-analysis of the deposited data

How the results depend on the processing

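Over 19 alternatives, 942 values of the members were recomputed. Of these, 888 stayed on their side of the threshold with no called value changing sign, 39 were called only in the alternative, 0 lost a call with the sign kept, and 15 changed sign with a call in either setting. All 15 came from scaling the arrays to a common median. In knock-down against control they were Irf1 at -1.07 and -0.50 (brightest and next probe), Irf2 at -0.45, Irf3 at -0.36 and -0.65, Irf5 at -1.01, the brighter Irf9 probe at -0.36, and Stat3 at -0.50 and -0.25 (its brightest and its dimmest probe). In decoy against control they were the second Irf1 probe at -0.54, Irf2 at -0.58, the second Irf3 probe at -0.62, Irf5 at -0.82, the brighter Irf9 probe at -0.0393 and the first Stat3 probe at -0.10. Without a call in either setting, Irf1 (-0.66), Irf3 (-0.34) and the dimmest Stat3 probe (-0.38) also changed sign in decoy. The same scaling gave 2 probes called higher and 9 lower in knock-down, and 2 higher and 8 lower in decoy. With only the brightest probe of each gene 5 were called higher in knock-down, where fewer probes were tested. Array weights gave 9 higher and 3 lower in decoy, and a fit of only the 2 groups gave 8 higher and 2 lower in decoy; the cause was not tested. With 1 array left out, the counts called higher ranged over 9 to 10 in knock-down, 4 to 7 in decoy and 0 to 1 in knock-down against decoy. Those called lower ranged over 1 to 2 in knock-down, 1 to 2 in decoy and 0 to 0 between both treatments. The 7 came without knock-down replicate 2, the 2 lower in decoy without knock-down replicate 3 or decoy replicate 3, the 2 lower in knock-down without knock-down replicate 1 or 2, and the 1 between treatments without knock-down replicate 1. Replicate numbers are shared between groups, but same-numbered arrays did not deviate together (9 pairs, correlations of -0.22 to 0.28, 1 over 0.1), and 3 of 9 arrays correlated best with their own number. Treated arrays with different numbers gave correlations from -0.295 (knock-down 1 with decoy 3) to 0.391 (knock-down 2 with decoy 3), and what they share was not tested. The replicate block gave 9 higher and 1 lower in knock-down, and 5 higher and 1 lower in decoy. Signals near background limit Stat2, Irf8 in the treated groups, the second Irf9 probe in control and the interferon genes.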
